A study of Mus musculus with 18 samples.

Results

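Whisker pad samples from the sham-operated side of the face were compared between day 3 and day 1 after surgery, to describe the early course after the skin was opened with the facial nerve left intact. The samples were chosen by their labels, as left-side samples taken on these days, and they number 6 of the 18 samples of the series, 3 at each day. They come from 6 different mice, so day 3 and day 1 were compared without pairing. Each sample is a punch of skin and muscle together from the rostral whisker pad of an adult mouse, and the strain and age of each mouse were not given in the labels. The study's methods give an age range only for the RNA-seq mice together, and state that the study used both sexes. In every mouse the facial nerve was cut on the right side, at its buccal and superior marginal branches, under isoflurane, while on the left the incision was only closed again. For the nerve cut, the incision lay caudal to the pad, in skin cleared with depilatory cream, and was closed with cyanoacrylate glue. The study's methods do not give these details for the sham side. The fur was trimmed to the skin just before the tissue was taken. No unoperated mice were part of the comparison, so surgery, paralysis of the opposite side and handling are shared by all 6 samples, and each group is 3 mice. The p-values of the sham comparison measure the spread between mice, estimated over all 9 sham samples of days 1, 3 and 7. Those of the denervated side rest on its 9 samples likewise. For the comparison of the sides, all 18 samples were first fitted as if independent, although 2 come from each mouse. A second version held mouse as a block and so measures the spread of side differences within mice.

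The values are in TPM, which sets the level of a transcript relative to its length, and the authors normalized them between samples. The TPM of all transcripts of a gene were summed. The estimated depth of the 6 libraries was 13200000 to 16500000 reads, which covers counting error only. Markers of the labelled tissue were present in every library: the summed TPM of 4 keratinocyte markers ran from 5335 to 8642, while 4 markers of the glands of the face summed to between 0.477 and 7.90. The library of mouse 1 of day 1 stood apart. Its 6 skeletal muscle markers summed to 4672 TPM, against 16767 and 24137 in the other day 1 mice and 17506 to 18165 at day 3, and its 5 macrophage markers summed to 30.2 TPM against 70.9 to 146 in the other 5 libraries. The medians of the gene lists, layers, clusters and classes below are therefore also given without it. The punches are bulk tissue, in which fewer cells of a type and less RNA per cell cannot be told apart.

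Hair is made at the base of the follicle, where dividing matrix cells feed concentric layers: the hair shaft in the middle, built of cortex and cuticle, and the inner root sheath around it. Shaft cells fill first with hair keratins, which assemble into filaments, and then with keratin-associated proteins (KAPs), small cysteine-rich or glycine- and tyrosine-rich proteins that embed and cross-link these filaments. KAP genes lie side by side in dense genomic clusters, and the whisker pad carries both large vibrissal follicles and the small follicles of the fur.

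The genes that were higher on the sham side at day 3 than at day 1 were mostly genes of the hair shaft. Of 14903 genes tested, 14 (0.0939%) differed between the days with an adjusted p below the threshold of 0.05 (limma, with p adjusted over all genes by the Benjamini-Hochberg method), 13 of them higher at day 3 (0.0872%) and 1 lower (0.00671%). Of the 14, 11 lie in the KAP family, 9 on chromosome 11 and 2 on chromosome 16, and the other 3 are the hair keratin Krt86 and the very short genes Gm11034 and Gm47470. The KAP genes rose 4.39-fold to 15.8-fold on the log2(TPM + 0.5) scale, against a median log2 change of 0.04 over all genes tested. The call depends on how the spread is estimated: 7 genes passed when the 6 samples were fitted alone, 6 of them among the 14, and 0 when all 18 samples were fitted with mouse as a random block, where the lowest adjusted p was 0.0735 and 1945 genes had an unadjusted p under 0.05. Without mouse 1 of day 1, 16 genes passed, 12 of them in the KAP family, and 10 were among the 14.

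Sequences of a few of these genes show what the family members share. Promoters are the 120 bases before each gene's RefSeq start. Those of the genes of the Krtap3 subfamily are shown. So are those of the called KAP genes with the largest changes, down to Krtap22-2, for which RefSeq gave one. They are from build GRCm38.p6, written on the gene's own strand 5′ to 3′, and the capitals mark the letters TATAAA, the core of a TATA box.
2310061N02Rik promoter (chr16:88707963-88708082, minus strand): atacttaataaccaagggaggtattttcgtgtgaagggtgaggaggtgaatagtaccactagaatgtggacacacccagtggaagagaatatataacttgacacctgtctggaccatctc
Krtap1-4 promoter (chr11:99583678-99583797, minus strand): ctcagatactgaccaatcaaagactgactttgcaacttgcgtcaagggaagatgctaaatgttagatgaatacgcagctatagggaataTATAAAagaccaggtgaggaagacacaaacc
Krtap3-1 promoter (chr11:99566631-99566750, minus strand): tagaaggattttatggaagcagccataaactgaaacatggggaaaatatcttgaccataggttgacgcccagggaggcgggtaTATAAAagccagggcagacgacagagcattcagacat
Gm11555 promoter (chr11:99650182-99650301, minus strand): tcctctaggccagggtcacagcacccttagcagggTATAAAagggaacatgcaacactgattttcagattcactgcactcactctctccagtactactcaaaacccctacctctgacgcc
Krtap3-2 promoter (chr11:99556854-99556973, minus strand): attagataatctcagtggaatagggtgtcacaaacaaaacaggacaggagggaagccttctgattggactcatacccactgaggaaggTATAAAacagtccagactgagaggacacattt
Krtap3-3 promoter (chr11:99550864-99550983, minus strand): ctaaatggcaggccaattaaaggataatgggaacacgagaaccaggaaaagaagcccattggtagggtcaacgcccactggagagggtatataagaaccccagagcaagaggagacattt
Krtap9-3 promoter (chr11:99598107-99598226, minus strand): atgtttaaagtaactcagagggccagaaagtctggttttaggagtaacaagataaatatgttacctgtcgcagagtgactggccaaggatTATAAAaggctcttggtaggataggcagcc
Krtap22-2 promoter (chr16:89010760-89010879, minus strand): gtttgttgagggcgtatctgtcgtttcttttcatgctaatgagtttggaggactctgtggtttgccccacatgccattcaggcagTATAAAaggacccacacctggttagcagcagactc
In Krtap1-4, Krtap3-1, Krtap3-2, Krtap9-3 and Krtap22-2 the TATAAA nearest the gene began 31, 37, 32, 30 and 35 bases before the RefSeq start. In Gm11555 it began 85 bases before the RefSeq start. The Gm11555 window reaches into the gene as GENCODE places it (chr11:99649599-99650236), so its distance cannot be set beside the others. Krtap3-3 and 2310061N02Rik held no match to these letters in this window. Over both strands, TATAAA was found in 59 of the 72 KAP promoters that RefSeq gave (81.9%), in 31 of 33 (93.9%) on chromosome 11, and in 6.34% of all 32851 promoters of the same length. The letters TTTATNG, which can overlap TATAAA on the other strand, were in 4 of 72 KAP promoters (5.56%) and 4.73% of all. The letters CTTTGAA were in 1 of 72 (1.39%) and 1.81% of all. These matches describe the letters only.

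The first 30 codons of 4 called genes, from the GENCODE transcripts, show the classes of protein they encode. Capitals mark cysteine codons in Krtap4-1, Krtap1-4 and Krtap3-1, and glycine and tyrosine codons in Krtap22-2.
Krtap4-1 coding start: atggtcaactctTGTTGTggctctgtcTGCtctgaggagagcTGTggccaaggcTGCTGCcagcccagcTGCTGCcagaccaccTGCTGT
Krtap1-4 coding start: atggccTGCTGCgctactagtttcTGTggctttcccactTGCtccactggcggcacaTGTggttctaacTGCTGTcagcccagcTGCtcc
Krtap3-1 coding start: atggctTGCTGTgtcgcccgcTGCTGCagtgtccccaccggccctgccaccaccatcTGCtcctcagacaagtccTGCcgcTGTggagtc
Krtap22-2 coding start: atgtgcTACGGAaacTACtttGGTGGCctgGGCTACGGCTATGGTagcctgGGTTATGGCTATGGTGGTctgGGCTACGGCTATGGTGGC
Cysteine took 10, 8 and 7 of the 30 codons in Krtap4-1, Krtap1-4 and Krtap3-1. In Krtap22-2, 22 of the 30 codons were for glycine or tyrosine.

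In size of change the classes of the called KAP genes overlapped, with the largest changes in the high-sulfur class. This class holds all members outside the ultra-high-sulfur and high-glycine-tyrosine classes and has no lower limit of cysteine. Krtap1-4 (chr11:99583062-99583654, minus strand) was at 18.5, 18.1 and 17.4 TPM in the 3 mice of day 1 and at 182, 253 and 242 TPM in those of day 3. The groups did not overlap, and the spread within day 1 was small, 18 ± 0.545 TPM against 226 ± 37.8 TPM at day 3 (SD, n = 3). Its log2 change was 3.60 ± 0.18 (SE), or 12.1-fold, with an adjusted p of 0.000277 (limma). An estimated 109 to 127 reads stood behind each day 1 value and 1098 to 1256 behind each day 3 value. Krtap3-1 (chr11:99566027-99566630, minus strand), at day 3 the highest per length of the 9 called genes of chromosome 11, was at 198, 150 and 111 TPM at day 1 and at 1260, 1487 and 1070 TPM at day 3. The lowest day 3 mouse was above the highest day 1 mouse by more than the range of either group, and the log2 change was 3.08 ± 0.28 (SE, adjusted p = 0.00551, limma).

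Genes beside these were higher at day 3 as well. Krtap3-2 (chr11:99555823-99556853) was at 70.6, 66.9 and 71.4 TPM at day 1 and 503, 441 and 352 TPM at day 3. Krtap3-3 (chr11:99550130-99550865) was at 216, 147 and 109 TPM and then at 952, 1059 and 746 TPM. Both rose without overlap between the groups, by 2.61 and 2.58 on the log2 scale, with adjusted p of 0.00538 and 0.0136 (limma). Krtap3-2 passed in all 6 fits that left out a mouse, and Krtap3-3 in 3 of them. Of the 31-base words of Krtap3-3, 42.9% occur in transcripts of other genes, so its reads could be divided between genes with some uncertainty. Krtap9-3 (chr11:99597347-99598105) was at 108, 51.6 and 62.3 TPM at day 1 and 452, 589 and 490 TPM at day 3, a log2 change of 2.84 (adjusted p = 0.00538, limma). On chromosome 16, 2310061N02Rik (chr16:88707169-88707962), a gene that lies within the cluster without carrying a Krtap name, was at 4.19, 5.35 and 3.26 TPM and then at 91.6, 118 and 37.0 TPM. It had the largest fold of the called members, 15.8, with an adjusted p of 0.0354 (limma), and the 3 mice of day 3 were far apart from each other. It passed in 1 of the 6 fits that left out a mouse.

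Ultra-high-sulfur members are the KAPs richest in cysteine. Gm11555 (chr11:99649599-99650236) was at 7.69, 8.97 and 8.78 TPM at day 1 and 60.0, 66.0 and 81.5 TPM at day 3. Krtap1-3 (chr11:99590461-99591339) was at 64.7, 44.9 and 42.7 TPM and then 251, 349 and 388 TPM. These groups were far apart, and the log2 changes were 2.95 and 2.68 with adjusted p of 0.00325 and 0.00509 (limma). Gm11562 (chr11:99619619-99620435) was at 122, 58.6 and 75.4 TPM at day 1 and 458, 413 and 522 TPM at day 3 (log2 change 2.50, adjusted p = 0.0093, limma). Krtap4-1 (chr11:99627224-99628238) had the smallest change of the called members, from 95.8, 53.4 and 59.2 TPM to 295, 232 and 381 TPM (log2 change 2.13, adjusted p = 0.025, limma). In both of these genes mouse 1 was the highest of day 1 and still lay below every mouse of day 3. Gm11562 passed in 5 and Krtap4-1 in 2 of the 6 fits that left out a mouse.

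The third class, the high-glycine-tyrosine KAPs, had 1 called gene. Krtap22-2 (chr16:89010395-89010759) was at 264, 231 and 154 TPM at day 1 and at 1368, 1666 and 1062 TPM at day 3, a log2 change of 2.67 ± 0.31 (SE, adjusted p = 0.0248, limma). Its transcript shared no 31-base word with another gene, so its reads were not divided with a paralog. It kept its call in 1 of the 6 fits without a mouse.

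Krt86 (chr15:101473478-101479986, plus strand), a keratin of the hair cortex, was at 97.8, 104 and 59.0 TPM at day 1 and at 448, 730 and 356 TPM at day 3. The groups did not overlap, and the log2 change was 2.53 ± 0.32 (SE, adjusted p = 0.0354, limma), but the call was lost in each of the 6 fits that left out a mouse. The cortex keratin Krt34 and the KAP gene Gm11938 were next in order and did not pass (adjusted p = 0.0562 each, limma). Krt34 was at 212, 144 and 101 TPM at day 1 and 741, 887 and 482 TPM at day 3, and Gm11938 at 185, 71.2 and 81.0 TPM and then 451, 509 and 627 TPM.

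**Figure D1:**
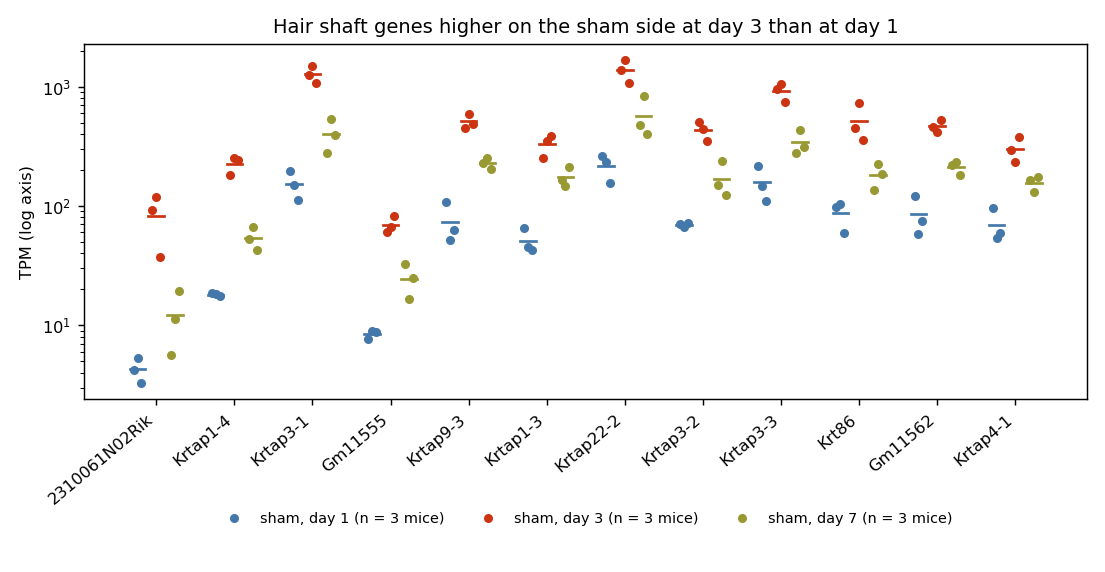
Summed TPM of the 11 called KAP genes and Krt86 in each sham-side library at day 1, day 3 and day 7, on a log axis, with 3 mice a day as points and the mean as a bar. In every gene the 3 mice of day 3 lie above the 3 of day 1, as in Krtap1-4 at 182 to 253 against 17.4 to 18.5 TPM, and the mice of day 7 lie between.

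Day 7 mice, also sham-operated, give the same genes a later value. Krtap1-4 was at 52.8, 66.6 and 42.4 TPM at day 7, and Krtap3-1 at 278, 539 and 395 TPM. In all 11 called KAP genes every day 7 value lay between the highest day 1 value and the lowest day 3 value. This was so in 14 of the 80 tested members, and in 63 the day 7 mean lay between the other means. The day 7 mice enter the estimate of the spread, and in 2 of the 3 Y-linked transcripts were near 0, unlike in all 6 mice of days 1 and 3. Leaving these mice out gave 7 calls, 6 of them in the KAP family and 6 of them among the 14.

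The KAP family as a whole was then described gene by gene. It was taken as the 57 measured protein-coding genes named Krtap and the 31 other protein-coding genes that lie between the first and the last of them on chromosomes 11 and 16, a grouping made after the values were seen. Of these 88 genes, 80 had enough signal to be tested, 74 of them with at least 1 TPM in all 3 mice of day 1 and 0 through the day 3 values alone. Of the 80, 79 had a positive log2 change, against 56.3% of all genes tested, and in 67 all 3 mice of day 3 were above all 3 of day 1, against 10.7% of all genes tested. The median log2 change was 2.02, and it was 2.26 with 78 positive without mouse 1 of day 1. This library, low in muscle, was not low in KAP transcripts: it had the highest of the 3 day 1 values in 61 of the 80 genes. The exception in direction was 1110057P08Rik, at 11.6, 4.75 and 1.15 TPM at day 1 and at 0, 6.95 and 4.26 TPM at day 3, where the groups overlap and the log2 change was -0.85.

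By position, the 37 tested genes of the chromosome 11 cluster had a median log2 change of 2.15, all of them positive and 34 without overlap between the groups. The 33 of chromosome 16 had a median of 2.06, with 25 without overlap. Without mouse 1 of day 1 these medians were 2.30 and 2.26. The small clusters had lower medians, 1.43 for the 5 Krtap5 genes of chromosome 7, 1.38 for the 3 genes of chromosome 10 and 1.25 for the 2 genes of chromosome 1, and no called member. Without that mouse they were 1.89, 1.86 and 1.73. In the same order, 5, 2 and 1 of these genes had all day 3 mice above all day 1 mice, against 10.7% of all genes tested. KAPs of the Krtap5, Krtap10 and Krtap12 subfamilies are known from the hair cuticle. By protein class, again set after the values were seen, the medians were 2.28 for 26 high-sulfur genes, 1.95 for 31 ultra-high-sulfur genes and 2.06 for 23 high-glycine-tyrosine genes, and 2.65, 2.23 and 2.26 without that mouse. High sulfur was the class for the rest, and its 10 tested genes of chromosome 16 had a median of only 9.09% cysteine. The differences between clusters or classes were not tested.

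Some abundant members did not pass, though called members such as Krtap22-2 (mean 1366 TPM at day 3) were abundant as well. Krtap8-1, a glycine-tyrosine KAP of the cortex, was at 835, 1221 and 286 TPM at day 1 and 3232, 3644 and 1797 TPM at day 3. Krtap7-1 was at 850, 1100 and 373 TPM and then at 2644, 3058 and 1561 TPM. In both genes all day 3 mice were above all day 1 mice, but mouse 3 was the lowest in each group, and the adjusted p were 0.245 and 0.222 (limma) at log2 changes of 2.06 and 1.73. Krtap11-1 was at 340, 629 and 159 TPM at day 1 and 816, 1095 and 374 TPM at day 3, where the groups overlap. Krtap15, on the opposite strand from the overlapping Krtap14, was at 189, 296 and 101 TPM and then at 1626, 1415 and 733 TPM (log2 change 2.74, adjusted p = 0.143, limma). The largest fitted change of the family, 4.59 in Gm11937, also missed the threshold (adjusted p = 0.125, limma): it was at 3.49, 1.58 and 1.05 TPM at day 1 and at 13.4, 112 and 115 TPM at day 3, and 91.5% of its 31-base words occur in other genes.

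Summed over the 88 genes, KAP transcripts were at 7514, 6616 and 3492 TPM in the mice of day 1 and at 28541, 27851 and 19370 TPM in those of day 3, 4.30 times the day 1 mean. At day 7 the sums were 8898, 11958 and 10989 TPM. The day 3 sums stood apart from both other days. In the median member 23.7% of 31-base words occur in another gene. In 15 tested members none do, and all 15 were higher at day 3, with a median log2 change of 1.69, a lowest of 0.85 and 10 without overlap.

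**Figure D2:**
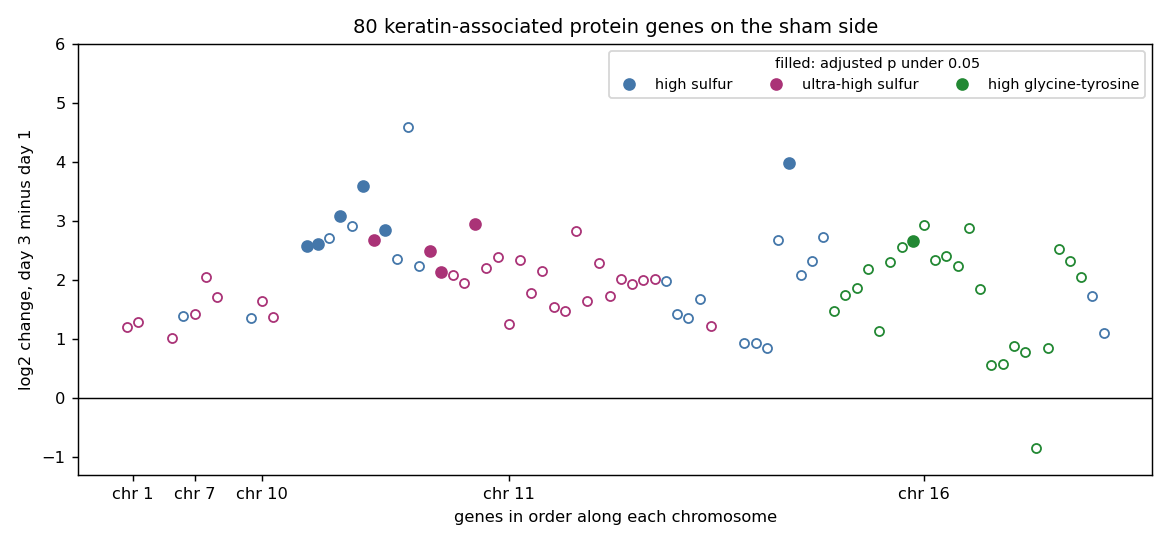
Log2 change of summed TPM from day 1 to day 3 on the sham side for the 80 tested KAP genes, in genomic order within each chromosome and colored by protein class, with called genes filled. All but 1 point lie above 0, and 9 of the 11 filled points are on chromosome 11.

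Hair genes were set beside the KAPs by their place in the follicle. The list of hair shaft and inner root sheath genes also holds KAP genes, so its values partly repeat those above. Of its 37 tested genes, 32 were positive with a median log2 change of 1.17. In 20 all day 3 mice were above all day 1 mice, and 4 passed, Krt86 and members of the KAP family. Without mouse 1 of day 1, 35 were positive with a median of 1.21. Of the 12 hair keratins of the shaft, 11 were positive with a median of 1.66, 1.80 without that mouse, and 1, Krt86, passed. The cortex keratin Krt81 was at 141, 236 and 68.4 TPM at day 1 and 632, 1027 and 341 TPM at day 3 (log2 change 2.20, adjusted p = 0.225, limma). Krt33b was at 221, 365 and 54.8 TPM and then at 694, 1469 and 426 TPM, also with a log2 change of 2.20. Both genes were without overlap but varied several-fold between mice of 1 day.

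Krt35 and Krt32, keratins known from the earliest shaft cells and the cuticle, and the cuticle gene S100a3 showed no such separation. The 5 Krtap5 genes described above, also known from the cuticle, were without overlap. Krt35, made in the lowest shaft cells, was at 332, 330 and 171 TPM at day 1 and at 204, 291 and 249 TPM at day 3, a log2 change of -0.12 whose sign turned with the mouse left out. Krt32, a cuticle keratin, was at 119, 140 and 58.5 TPM and then at 126, 103 and 107 TPM (log2 change 0.17, with the sign turning likewise). S100a3, a calcium-binding protein of the cuticle, was at 1041, 1241 and 585 TPM and then at 1065, 1271 and 950 TPM. In all 3 genes the groups overlapped.

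In the inner root sheath, all 8 tested genes were positive with a median log2 change of 1.24, and of 1.22 without mouse 1 of day 1. In 5 all day 3 mice were above all day 1 mice, against 10.7% of all genes tested, and 0 were called. An unadjusted p under 0.05 (limma) was found in 4, against 10.8% of all genes tested. Trichohyalin (Tchh), the granule protein of the sheath, was at 85.6, 103 and 93.4 TPM at day 1 and at 285, 399 and 183 TPM at day 3 (log2 change 1.55, adjusted p = 0.306, limma). Krt71, a sheath keratin, was at 316, 367 and 338 TPM and then at 847, 1178 and 590 TPM (log2 change 1.30, adjusted p = 0.446, limma). Neither gene overlapped between days. The 6 follicle regulators had a median log2 change of -0.11, 2 positive, and 0.15 with 4 positive without mouse 1 of day 1. Hoxc13, a transcription factor needed for hair keratin expression, was at 45.5, 35 and 23 TPM at day 1 and at 24.6, 37.0 and 26.9 TPM at day 3 (log2 change -0.19, 0.03 without mouse 1 of day 1). Lef1, a factor of Wnt signaling in matrix cells, was at 22.4, 18.8 and 13.7 TPM and then at 10.4, 15.7 and 12.9 TPM (log2 change -0.47, adjusted p = 0.754, limma). Foxn1, the gene mutated in nude mice, was at 14.6, 16.5 and 8.94 TPM and then at 17.1, 26.6 and 14.3 TPM (log2 change 0.51, adjusted p = 0.593, limma). The regulators overlapped between days in all 6 genes, and the layers were grouped after the values were seen.

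**Figure D3:**
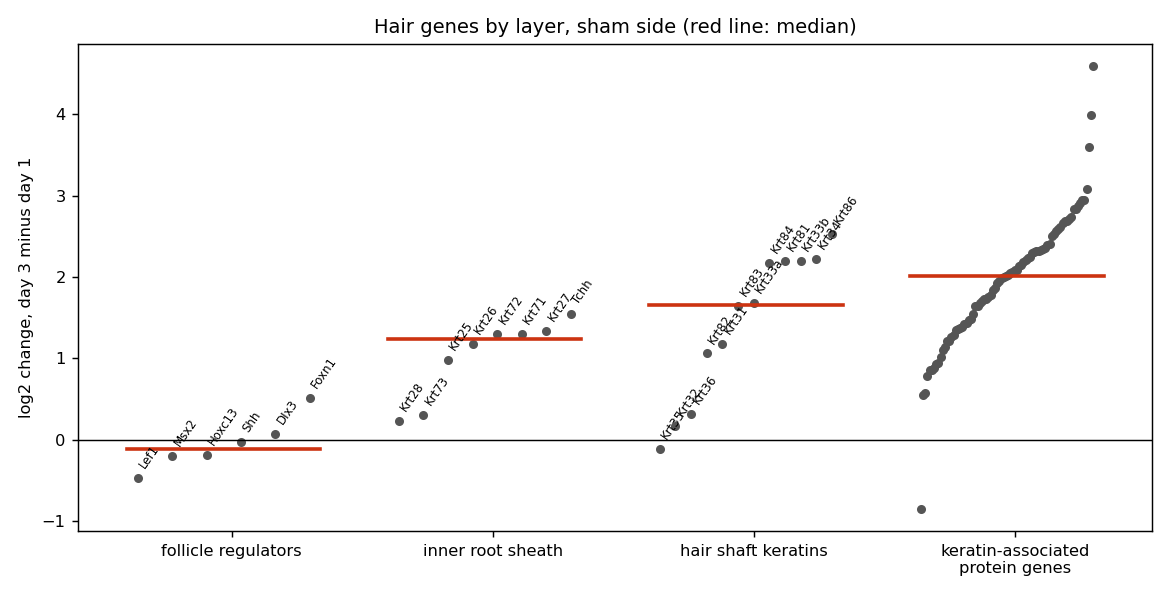
Log2 change from day 1 to day 3 on the sham side for tested genes of 4 groups of hair genes, each ordered by size, with the group median as a red line. The medians run from -0.11 for 6 follicle regulators over 1.24 for 8 inner root sheath genes and 1.66 for 12 hair shaft keratins to 2.02 for 80 KAP genes.

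The denervated right side of the same mice was set beside the sham side to ask whether the day 3 rise belonged to one side. On the denervated side 1697 of 14794 genes (11.5%) differed between day 3 and day 1, and of the 12 of the 14 sham-side genes that were tested there, 0 passed. The difference between the sides in the change from day 1 to day 3 was tested as an interaction in all 18 samples. It passed for 18 of 14721 genes (0.122%) and, with mouse as a block since both sides come from 1 animal, for 70 (0.476%), and 0 of the 14 genes were among either. Gm11034 and Gm47470 did not meet the filter for this test and have no result in it. The other 12 of the 14 genes were not shown to differ between sides. On the denervated side the median was -0.38 for the list of hair shaft and inner root sheath genes, which also holds KAP genes. It was -0.23 for the shaft keratins and -0.42 for the inner root sheath genes. These medians include mouse 1 of day 1, whose denervated side had the highest day 1 sums of these genes. Shaft keratins there summed to 7168, 1227 and 1591 TPM at day 1 and to 3180, 2333 and 1887 TPM at day 3. Inner root sheath genes summed to 2589, 904 and 1370 TPM and then to 1561, 491 and 1553 TPM. Medians without this library are not given here. Of the 80 KAP genes tested on the sham side, 61 had a positive change on the denervated side, and the median there was 0.56. In 76 the log2 change was lower there than on the sham side, and the median difference was -1.54. None passed for the difference, with a lowest adjusted p of 0.425, or of 0.098 with mouse as a block (limma), and 8 and 47 had an unadjusted p under 0.05. Krtap9-5, too low for the sham-side test, passed with the block (adjusted p = 0.0433, limma): it was at 0.142, 0.0776 and 0.0782 TPM on the sham side at day 1 and 2.81, 0.589 and 5.29 TPM at day 3, against 1.32, 2.04 and 1.87 TPM and 0.522, 0.493 and 1.42 TPM on the denervated side. At these levels a few reads stand behind each value. No sham sample of day 1 reached the minimum of 1 TPM, so Krtap9-5 met the filter through the other groups alone. Its call thus rests in part on a filter that the difference itself helped to fulfil.

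The gap was smaller without 1 denervated library. Krtap1-4 was at 243, 17.5 and 12.9 TPM on the denervated side at day 1 and at 151, 97.3 and 92.8 TPM at day 3, and Krtap3-1 at 1105, 195 and 142 TPM and then at 1042, 683 and 412 TPM. Mouse 1 of day 1 was thus at day 3 levels on its denervated side and at day 1 levels on its sham side. In 72 of the 80 genes this library was above all sham samples of day 1. Without it, 74 of the 80 KAP genes were positive on the denervated side with a median of 1.09. The chromosome 11 genes summed to 2291, 1310 and 1285 TPM on the sham side at day 1 and 8135, 8444 and 8995 TPM at day 3, and to 8984, 1972 and 1678 TPM and then 7505, 5120 and 3452 TPM on the denervated side. In these chromosome 11 sums the sham side was the higher in all 3 mice at day 3, and the denervated side at day 1. Summed over all 88 genes, mouse 2 of day 1 went the other way, at 6616 TPM on the sham and 6302 TPM on the denervated side.

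**Figure D4:**
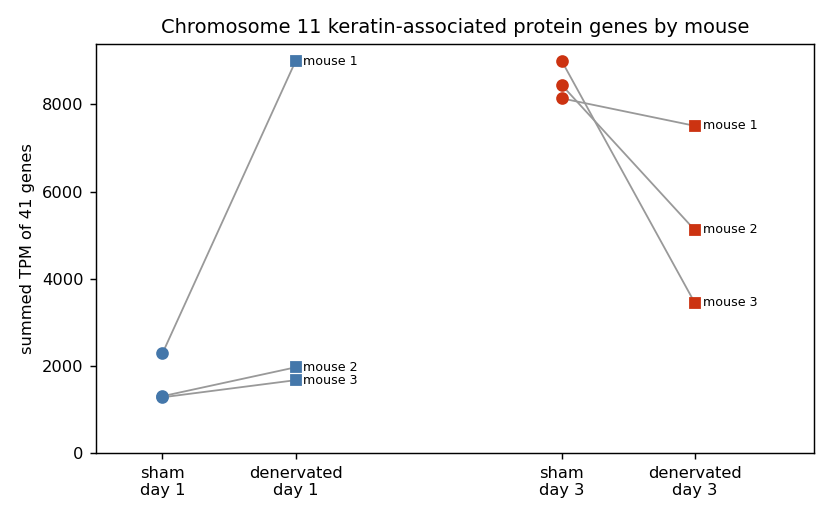
Summed TPM of the 41 KAP-cluster genes of chromosome 11 in each mouse, with the sham side (circles) and the denervated side (squares) of a mouse joined by a line. At day 1 the sham sides are at 1285 to 2291 TPM and 1 denervated side is at 8984, and at day 3 the sham sides are at 8135 to 8995 TPM and the denervated sides at 3452 to 7505.

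The other called genes are short. Gm11034 (chr8:72213494-72213636), with a transcript of 90 bases, was listed at 0 in all 3 mice of day 1 and at 6.01, 31 and 7.34 TPM at day 3, and again at 0 in all 3 of day 7 (adjusted p = 0.0248, limma). It reached the minimum level for testing through its day 3 values alone. Gm47470 (chr13:74570447-74570555), a processed pseudogene of 109 bases and the only gene called lower, was at 4.28, 4.66 and 4.81 TPM at day 1 and listed at 0 at day 3 and at day 7 (adjusted p = 0.00282, limma). It reached that minimum through its day 1 values alone, so both calls rest on a filter that the change itself fulfilled. TPM of such short transcripts rest on few reads, and without genes under 200 bases 12 genes passed. Krtap22-2, at 365 bases, is the shortest of the other called transcripts.

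Besides Gm47470, no gene passed as lower at day 3. In 1029 genes (6.90%) all 3 day 3 values were below all 3 day 1 values. The 15 protein-coding genes with the smallest unadjusted p among those lower had adjusted p of 0.0847 to 0.197 (limma). They were picked among genes whose groups do not overlap. Rad9b, a DNA damage checkpoint gene, was at 14.1, 13.5 and 13.9 TPM at day 1 and at 7.09, 8.93 and 7.78 TPM at day 3 (log2 change -0.77). Sharpin, part of the linear ubiquitin ligase complex, whose loss causes dermatitis in mice, was at 108, 107 and 112 TPM and then at 70.1, 73.0 and 76.8 TPM (log2 change -0.57). The day 7 values of both lay between, at 11.6, 12.9 and 10.7 TPM for Rad9b. Nlrc5, the activator of major histocompatibility complex class I genes, was at 41.8, 34 and 36.3 TPM and then at 20.8, 19.5 and 22.7 TPM (log2 change -0.81), and the class I gene H2-Q4 was at 92.0, 85.7 and 87.9 TPM and then at 53.2, 60.7 and 50.6 TPM (log2 change -0.69). The nucleolar protein gene Ncl was at 299, 305 and 311 TPM and then at 202, 197 and 222 TPM, and the ribosomal protein gene Rpl5 at 94.9, 90.2 and 91.4 TPM and then at 58.2, 61.7 and 67.5 TPM, log2 changes of -0.56 in both. The others of the 15 were Xlr4b, Gm13199, Haus3, Rhebl1, Ovgp1, Phf14, Ints6l, Pan3 and Dclre1a, with log2 changes of -1.24 to -0.55.

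Beyond hair, no member passed in any other list of genes. Fibrillar matrix and fibroblast genes were higher by their counts: 37 of 41 were positive with a median log2 change of 0.64, against 56.3% positive over all genes tested. In 17 all day 3 mice were above all day 1 mice and in 0 below, against 10.7% and 6.90% of all genes. An unadjusted p under 0.05 (limma) was found in 20, against 10.8% of all genes, and without mouse 1 of day 1 the median was 0.49 with 38 positive. Col14a1, a collagen that binds to fibrils, was at 2.85, 5.35 and 4.44 TPM at day 1 and at 9.15, 15.5 and 11.1 TPM at day 3 (log2 change 1.41, adjusted p = 0.119, limma). Loxl1, an enzyme that cross-links elastin, was at 2.77, 4.41 and 5.45 TPM and then at 8.82, 15.8 and 9.42 TPM (log2 change 1.33, adjusted p = 0.197, limma). At day 7 Col14a1 was at 15.9, 17.3 and 15.7 TPM, above every day 3 value. Fbn1 (0.87), Col6a1 (0.85), Col6a3 (1.28), Fn1 (1.27) and Tnc (0.99), genes of microfibrils, beaded filaments and provisional matrix, also had log2 changes above 0 without overlap, while Col1a1 overlapped, at 18.4, 35.9 and 57.4 TPM and then 31.9, 103 and 62.7 TPM. The fibroblast markers of mouse 1 of day 1 summed to 397 TPM, against 696 to 1422 in the other 5 libraries, and the part of this library in the matrix values was tested only by leaving it out.

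Endothelial genes were positive in 21 of 23 with a median log2 change of 0.57, and of 0.35 without mouse 1 of day 1. In 7 all day 3 mice were above all day 1 mice, against 10.7% of all genes tested, and 10 had an unadjusted p under 0.05 (limma), against 10.8% of all genes. Kdr, the receptor for VEGF, was at 2.20, 2.87 and 4.50 TPM at day 1 and at 6.82, 9 and 6.16 TPM at day 3 (log2 change 1.12, adjusted p = 0.216, limma), and Eng, a coreceptor for TGF-beta, at 8.81, 15.9 and 16.7 TPM and then at 31.5, 40.3 and 22.1 TPM (log2 change 1.17, adjusted p = 0.242, limma). Neither gene overlapped between days.

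The medians of muscle fiber, macrophage and neutrophil genes changed sign once the library low in muscle was left out. Of 30 skeletal muscle fiber genes, 28 were positive with a median log2 change of 0.48, but 5 with a median of -0.25 without mouse 1 of day 1, and none was without overlap. The creatine kinase gene Ckm was at 274, 1507 and 2476 TPM at day 1 and at 1706, 2289 and 2300 TPM at day 3, where the groups overlap. Monocyte and macrophage genes went from 18 of 24 positive with a median of 0.27 to 4 with -0.31, and neutrophil genes from 10 of 15 with 0.12 to 2 with -0.55. Genes of class II antigen presentation were positive in 2 of 13 with a median of -0.21, and -0.73 without this mouse, with 0 below without overlap. With the muscle level as a covariate, 15 genes passed, 12 of them in the KAP family, and 11 were among the 14.

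Melanocyte genes were negative in all 6 tested, with a median log2 change of -0.91, and of -1.17 without mouse 1 of day 1. In 4 all day 3 mice were below all day 1 mice, against 6.90% of all genes tested. Mlana, a melanosome protein gene, was at 12.8, 36 and 19.6 TPM at day 1 and at 5.97, 8.86 and 6.43 TPM at day 3 (log2 change -1.51, adjusted p = 0.388, limma). Pmel, which builds the fibrils of the melanosome, was at 13.3, 26.7 and 17.2 TPM and then at 5.77, 11.5 and 10.4 TPM (log2 change -1.01, adjusted p = 0.467, limma). These groups did not overlap, though mice of day 1 differed more than 2-fold among themselves and day 7 values ran from 3.70 to 19.8 TPM in Mlana.

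Clock genes, which cycle over the day, differed in opposite directions. Of 21 tested, 6 were below without overlap, against 6.90% of all genes tested, and 1, Arntl, above, against 10.7%. Their median was -0.16, and -0.25 without mouse 1 of day 1. Arntl was at 9.21, 11.6 and 7.23 TPM at day 1 and at 14.8, 14.6 and 18.2 TPM at day 3 (log2 change 0.75, adjusted p = 0.222, limma). Dbp, a target that Arntl activates, was at 56.9, 31.8 and 59.1 TPM and then at 20.9, 22.8 and 18.7 TPM (log2 change -1.18, adjusted p = 0.356, limma). Ciart (-0.92), Per3 (-0.88), Per2 (-0.77), Nr1d2 (-0.75) and Tef (-0.50) were the others below. The time of day at which each mouse was killed was not given in the sources used here.

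Of epidermal and wound-related genes, few were apart between days. Sprr1a, a cornified envelope protein made in stressed epidermis, was at 185, 165 and 194 TPM at day 1 and at 635, 371 and 493 TPM at day 3 (log2 change 1.43, adjusted p = 0.218, limma). On the denervated side it was at 431, 335 and 310 TPM and then at 458, 209 and 303 TPM, and the difference between sides passed with mouse as a block. Defb14, an antimicrobial peptide gene, was at 131, 172 and 264 TPM and then at 36.7, 82.8 and 94.6 TPM (log2 change -1.45, adjusted p = 0.314, limma). The alarmin Il33 was at 7.45, 7.51 and 10.3 TPM and then at 12.3, 15.1 and 13 TPM (log2 change 0.66, adjusted p = 0.284, limma). All 3 were without overlap on the sham side. The list of stress keratins and alarmins had 16 of 27 positive with a median of 0.27, and 13 with -0.08 without mouse 1 of day 1. Genes of epidermal layers had 19 of 26 positive with a median of 0.24, and 19 with 0.20 without that mouse. Genes of DNA replication and mitosis had 8 of 42 positive with a median of -0.12, but 21 with 0.0063 without that mouse, and none was without overlap.

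**Figure D5:**
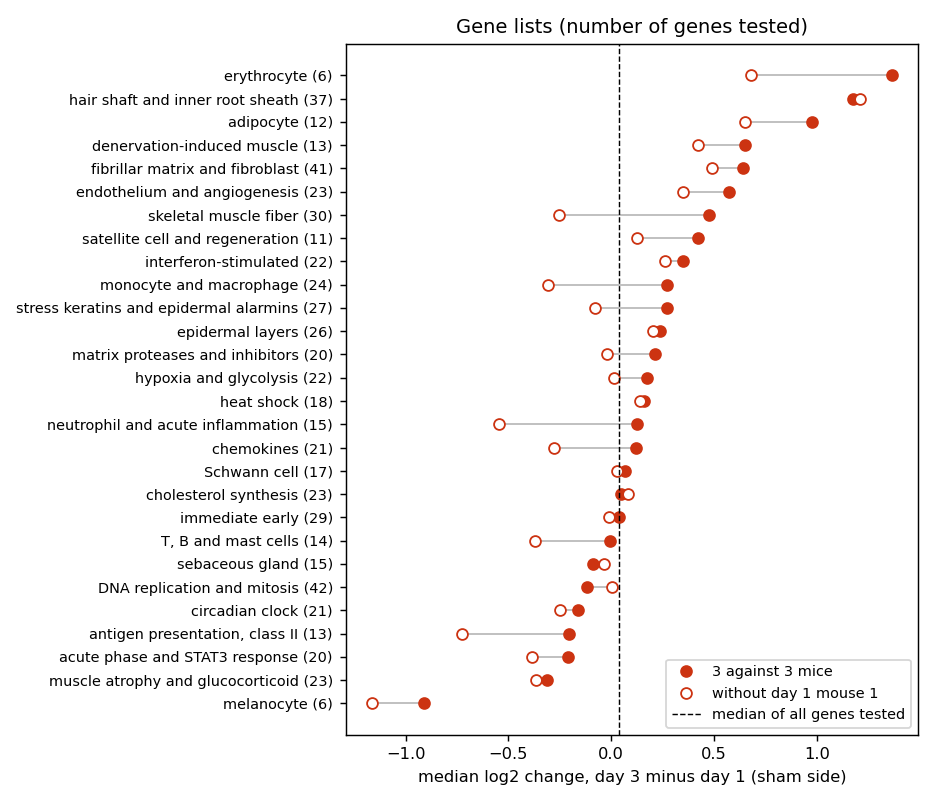
Median log2 change from day 1 to day 3 on the sham side for each list of genes, with the number of genes tested in brackets, for 3 against 3 mice (filled) and without mouse 1 of day 1 (open), beside the median of all genes tested (dashed, 0.04). Hair genes (1.17) keep their median without this mouse, while skeletal muscle fiber genes move from 0.48 to -0.25.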

How the data were processed

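RNA-seq was performed on skin and muscle punches from both whisker pads of 9 mice, 3 at each of days 1, 3 and 7. The samples were grouped by the day and side in their labels, and all columns of the table could be mapped (0 were not). Libraries were made with a TruSeq RNA kit and sequenced on a NextSeq. Per the study's methods, reads were deduplicated with ParDRe and trimmed with Fastp. The submitters' processing notes name bcl2fastq 2.17.1.14, kallisto 0.43.1, sleuth and build GRCm38. The deposited signal values are TPM per transcript that the authors normalized between samples. The 6 libraries of the comparison sum to between 833186 and 1035937, so they are not plain TPM, although the tests had been chosen for TPM.

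Of 113194 transcripts, 98.46% matched GENCODE release M21 by identifier, and TPM were summed for 35150 genes. Read numbers were estimated from low values of single-transcript genes. Between 72.2% and 81.2% of these lay within 0.1 of a whole read, so counts were not recovered and no count test was run. Intervals of counting error were not formed.

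Genes that reached a TPM of 1 in 47% or more of the 6 samples were fitted as log2(TPM + 0.5) with limma 3.58.1 in R 4.3.3, allowing a trend of variance with level. P values were adjusted by Benjamini and Hochberg's method (Benjamini-Hochberg) and called below 0.05. Folds are on this scale and understate the change of low genes. The fit held the 9 sham samples. Day 7 adds to the spread alone. The interaction with side was fitted over 18 samples, with mouse as a block in a second version, since the residuals of both sides of a mouse correlated in all 9 mice (r from 0.15 to 0.57).

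Named genes are those of the lists, the called genes with the largest change, 15 in each direction, among protein-coding genes without overlap, filled where needed with the smallest unadjusted p, and sex-linked genes. Of 30 lists, each is described by its counts and median with no test. The members and lists were chosen with earlier results of these data known. Genes outside the rule (Gm47470, Krtap9-5, other KAP genes) and the KAP family, protein classes and hair layers were chosen after their values were seen. KAP classes were set by residue content: cysteine above 30% for ultra-high sulfur, then glycine and tyrosine of at least 35% for high glycine-tyrosine, and high sulfur for the rest. Promoters are from RefSeq. Shared sequence was measured as 31-base words. Scripts used Python 3.11.15 with numpy 2.4.6, pandas 2.3.3, matplotlib 3.10.9 and biopython 1.88. The fit was tested on simulated data. Alternatives were pseudocounts, filters, scalings, fits of other samples and leaving out each mouse. Fits without short genes or without the day 7 mice lacking Y-linked transcripts, those of the denervated side and those of the KAP median were added after the data were seen. The authors' own statistics were not used.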

Additional observations from a re-analysis of the deposited data

Results flagged for a closer look

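The change from day 1 to day 3 differed between the denervated and the sham side, by an interaction term in limma with Benjamini-Hochberg adjustment, in 18 genes and, with mouse as a block, in 70 genes. All 18 had a more positive change on the denervated side than on the sham side, as did 49 of the 70. Of the genes described for the sham side, Sprr1a, Chrna1 and Krtap9-5 were among the 70 and not among the 18. Sprr1a had a difference of -1.64 on the log2 scale (denervated minus sham, adjusted p = 0.0118 with the block and 0.294 without). Sprr1a was higher at day 3 in all 3 sham samples than in any of day 1, with a log2 change of 1.43, and had a log2 change of -0.21 on the denervated side, where the day 1 samples at 310 to 431 TPM were above all 3 sham samples of day 1 at 165 to 194 TPM. The acetylcholine receptor gene Chrna1 differed by 2.57 (adjusted p = 0.0466 with the block and 0.167 without), with log2 changes of 3.70 on the denervated and 1.13 on the sham side. Krtap9-5 differed by -3.03 (adjusted p = 0.0433 with the block and 0.116 without), with a log2 change of -0.83 on the denervated side and a few reads behind each value. It met the filter without any sham sample of day 1 at 1 TPM.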

How the results depend on the processing

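Against 14 genes called on the sham side, 7 were called in the 6 samples alone and 7 without the day 7 mice lacking Y-linked transcripts, 6 of them among the 14 each time, and 0 with all 18 samples and mouse as a random block. With the replicate number as a block in the 6 samples, 0 passed (1273 at an unadjusted p under 0.05), though numbers do not pair these mice, whose same-numbered residuals correlated at -0.11, 0.19 and -0.05. The other settings gave 12 to 19. Leaving out each mouse gave 7 to 16 calls, 7 without mouse 2 of day 1 and 9 without mouse 3 of day 3. Gm11555, Krtap1-3, Krtap1-4, Krtap3-1, Krtap3-2 and Krtap9-3 passed in all 6 of these fits. The KAP median stayed between 1.83 and 2.26 in every setting run.

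The difference between sides, 18 genes, fell to 10 at a TPM of at least 5, rose to 70 with mouse as a replicate block, and ran from 8 to 146 when a mouse was left out, with 146 without mouse 1 of day 1. The count of genes changed, denervated day 3 versus day 1, ran from 519, without mouse 2 of day 3, to 1398. Signs turned under leave-one-out for S100a3 (-0.064 to 0.48), Hoxc13 (-0.45 to 0.032), Krt32 (-0.21 to 0.42) and Krt35 (-0.43 to 0.045). The clock median was -0.43 without mouse 1 of day 3, and that of denervation-induced muscle genes was 0.18 at a TPM of at least 5 and 1.11 without mouse 3 of day 1. The causes were not tested. The estimated depth leaves genes near 1 TPM with few reads.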

Other observations

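Fat and blood genes were higher at day 3 by their counts, with the groups overlapping in most genes. Adipocyte genes were positive in 11 of 12 with a median log2 change of 0.98, and 0.65 without mouse 1 of day 1. Cfd, the adipocyte gene for complement factor D, was at 5.45, 35.9 and 70.2 TPM at day 1 and at 154, 166 and 77.1 TPM at day 3, and Adipoq, the gene for adiponectin, was at 1.96, 8.64 and 15.9 TPM and then at 64.7, 43.5 and 9.68 TPM, which overlap. Erythrocyte genes were positive in 6 of 6 with a median of 1.37, and 0.68 without this mouse, and overlapped in all. The alpha globin gene Hba-a1 was at 474, 1180 and 3224 TPM and then at 3461, 4759 and 1602 TPM.

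Genes that muscle makes when its nerve is cut were also positive on the sham side, where the nerve was intact: 12 of 13 tested, with a median log2 change of 0.65 against 2.65 on the denervated side, and 0.42 with 10 positive without mouse 1 of day 1. Chrna1, a subunit of the acetylcholine receptor, was at 1.04, 2.80 and 2.67 TPM at day 1 and at 7.29, 3.72 and 4.68 TPM at day 3 (log2 change 1.13, adjusted p = 0.337, limma), and its change differed from that on the denervated side with mouse as a block. Myog, a muscle transcription factor, was at 0.490, 2.14 and 1.51 TPM and then at 7.14, 3.38 and 3.45 TPM (log2 change 1.49, adjusted p = 0.290, limma). The day 3 mice were above those of day 1 in 5 of these genes, against 10.7% of all genes tested. The 11 satellite cell and regeneration genes were all positive with a median of 0.42, and 0.13 with 8 positive without this mouse. Muscle atrophy genes had 8 of 23 positive with a median of -0.31, and 4 with -0.37 without this mouse.

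Interferon-stimulated genes were positive in 18 of 22 with a median of 0.35, and 0.26 without mouse 1 of day 1, and in 6 all day 3 mice were above all day 1 mice, against 10.7% of all genes tested. Isg15, a ubiquitin-like protein, was at 5.58, 6.81 and 8.82 TPM at day 1 and at 13.6, 21.4 and 14.1 TPM at day 3 (log2 change 1.15, adjusted p = 0.276, limma). Chemokines had a median of 0.12 and T, B and mast cell genes one of -0.01, turning to -0.28 and -0.37 without this mouse, and acute phase genes had one of -0.21, and -0.38 without it. Medians were 0.21 for matrix proteases, 0.18 for hypoxia and glycolysis, 0.16 for heat shock, 0.07 for Schwann cells, 0.05 for cholesterol synthesis, 0.04 for immediate early genes and -0.09 for sebaceous gland genes, and 0 genes of these lists passed. Without this mouse they were -0.020 for matrix proteases, 0.013 for hypoxia and glycolysis, 0.14 for heat shock, 0.027 for Schwann cells, 0.082 for cholesterol synthesis, -0.010 for immediate early genes and -0.035 for sebaceous gland genes, so that the sign turned for matrix proteases and immediate early genes. Of gland genes of the face 4 were tested, with a median of 0.16 and 3 positive, and -0.17 with 1 positive without this mouse.

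Y-linked transcripts summed to 95.4 to 119 TPM in all 6 sham samples of days 1 and 3. At day 7 the sums were 2.78, 2.28 and 138 TPM, so the first and second of these mice differ in sex-linked expression from the mice of the other days.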
